A study of Mus musculus with 4 samples.

Results

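The platelet-derived growth factor (PDGF) family was followed through 4 single-cell RNA libraries of mouse liver. The family comprised the 4 ligand genes Pdgfa, Pdgfb, Pdgfc and Pdgfd and the 2 receptor genes Pdgfra and Pdgfrb. They were taken by gene symbol, make up 6 of the 32285 genes in the files, and were read in 82905 cells. Each of those cells had at least 500 unique molecular identifiers (UMIs, each standing for 1 captured RNA molecule), at least 300 genes and at most 15% mitochondrial UMIs. On GRCm38, Pdgfa lies on the minus strand of chromosome 5 (138976014 to 138997370) and Pdgfb on the minus strand of chromosome 15 (79995874 to 80014977). Pdgfc lies on the plus strand of chromosome 3 (81036416 to 81214040), and Pdgfd on the plus strand of chromosome 9 (6168584 to 6378850). Pdgfra lies on the plus strand of chromosome 5 (75152292 to 75198215), and Pdgfrb is on chromosome 18. All 6 are annotated as protein-coding genes.

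The mice were male C57BL/6J, 8 weeks old when the feeding began, and the cells were liver non-parenchymal cells counted with the 10x 5′ assay. There was 1 library for each of 4 groups: chow for 12 weeks, the Fibrosis and Tumor (FAT) model of metabolic dysfunction-associated steatohepatitis (MASH) for 12 weeks, and the same pair at 24 weeks. The FAT-MASH mice ate a Western diet (fat at 21.1%, with sucrose at 41% and cholesterol at 1.25%), drank water with 23.1 g/L fructose and 18.9 g/L glucose, and had CCl4 injected intraperitoneally every week at a low dose, so the effects of diet, sugar and toxin cannot be told apart. The chow mice were matched in age. The labels name no injection for them and give no number of mice in a library. The tissue stood on ice overnight before enzymatic digestion, and the non-parenchymal cells were then taken from a Percoll gradient. With 1 library per group no test was possible: intervals below are exact 95% intervals for counting error alone, and a gene is called higher or lower where its level differed at least 2-fold.

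The libraries held 52557786, 82606366, 91827150 and 105864367 UMIs in the order chow and MASH at 12 weeks, then chow and MASH at 24 weeks, an order kept below. The cells that passed numbered 18436, 17225, 27291 and 19953, with a median of 2096 to 3464 UMIs per cell. Scrublet called 11.9%, 12.1%, 23.8% and 10.6% of them doublets, so the 24-week chow library stood apart, and sums over all cells are given with and without these doublets. Values within cell classes leave them out. The 3 libraries with matching barcode lists shared 487 to 732 cell barcodes a pair, 2.64% to 3.96% of the smaller library, where the kit's barcodes alone would give 2.71% to 3.70%. Classes were named from fixed marker genes and are written "X-like". Levels are counts per 1000000 UMIs (CPM) summed over the cells of a class in a library.

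PDGFs are dimers of disulphide-linked chains that bind receptor tyrosine kinases on mesenchymal cells such as fibroblasts, pericytes and smooth muscle. The A and C chains bind the alpha receptor, the D chain binds mainly the beta receptor, and the B chain binds both. The C and D chains are secreted with an inhibitory CUB domain that proteases must cut away before the ligand is active. In the injured liver the family is best known as a mitogen for hepatic stellate cells, the vitamin A-storing pericytes of the sinusoid, and for portal fibroblasts.

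The 250 bases before the annotated start are shown for 3 members. Pdgfc and Pdgfd had the same leading source in both MASH libraries, and Pdgfra was the member most restricted to 1 class. The sequences are RefSeq's for GRCm38.p6, 5′ to 3′ on the gene's strand. The table matched 4 of the 6 members. Capitals mark exact matches, on either strand, to any of 5 short motifs. The GC box was searched as GGGCGG, where the factor Sp1 can bind. The second motif, CCAAT, is the box named for its letters. The box that positions the start in some promoters was searched as TATAAA. The motif of the TEAD factors was searched as GGAATG, and that of the SOX factors as ACAAAG.
Pdgfc, chromosome 3, 81036166 to 81036415, plus strand: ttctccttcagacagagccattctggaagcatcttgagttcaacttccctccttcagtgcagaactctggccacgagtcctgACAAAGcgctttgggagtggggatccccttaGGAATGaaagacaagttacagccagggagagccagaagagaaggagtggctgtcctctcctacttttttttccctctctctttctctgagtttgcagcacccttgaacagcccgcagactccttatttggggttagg
Pdgfd, chromosome 9, 6168236 to 6168485, plus strand: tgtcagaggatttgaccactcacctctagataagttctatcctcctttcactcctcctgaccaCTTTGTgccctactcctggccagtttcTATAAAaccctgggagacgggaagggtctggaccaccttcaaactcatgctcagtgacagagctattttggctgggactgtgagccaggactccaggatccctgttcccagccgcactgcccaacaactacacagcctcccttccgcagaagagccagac
Pdgfra, chromosome 5, 75152001 to 75152250, plus strand: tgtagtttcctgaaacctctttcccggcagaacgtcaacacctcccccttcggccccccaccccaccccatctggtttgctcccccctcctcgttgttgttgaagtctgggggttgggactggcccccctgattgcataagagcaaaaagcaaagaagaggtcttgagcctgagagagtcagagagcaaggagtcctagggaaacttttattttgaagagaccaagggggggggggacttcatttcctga
The windows of Pdgfc and Pdgfd each held 1 SOX motif, which 16.5% of 32851 promoters of this length held. Pdgfc also held the TEAD motif (12.6% of promoters) and Pdgfd the TATA box (12.4%). The window of Pdgfra held none of the 5 motifs. These matches describe letters and not binding sites.

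Summed over all cells, 5 of the 6 genes had a higher level in MASH than in chow at both weeks beyond counting error, and Pdgfrb did so at 12 weeks. The level of Pdgfc was 1.43, 5.81, 0.849 and 12.1 CPM in the 4 libraries, from 75, 480, 78 and 1281 UMIs. That puts MASH 4.07-fold (3.19 to 5.27) above chow at the first time point and 14.2-fold (11.3 to 18.1) at the second. Pdgfc therefore had the widest gap of the 4 ligands, and in MASH its level at 24 weeks was 2.08-fold (1.87 to 2.32) that at 12 weeks. Pdgfa stood at 6.45, 12.9, 4.01 and 12.7 CPM, a MASH to chow ratio of 2.0 (1.77 to 2.27) and then 3.18 (2.83 to 3.58). Pdgfd stood at 4.07, 6.33, 1.95 and 8.99 CPM, with ratios of 1.55 (1.32 to 1.83) and 4.61 (3.93 to 5.44). Both had nearly the same or a higher level in MASH at 24 weeks than at 12, and a lower one in chow. The level of Pdgfb was the least different of the ligands, at 13.9, 17.1, 11.7 and 21.7 CPM, with ratios of 1.24 (1.13 to 1.35) and 1.85 (1.72 to 1.99).

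The receptors gave few UMIs. Pdgfra was read at 1.66, 9.39, 0.207 and 3.08 CPM from 87, 776, 19 and 326 UMIs, so that MASH was 5.67-fold (4.54 to 7.17) above chow at 12 weeks and 14.9-fold (9.38 to 25.0) above it at 24 weeks. Pdgfrb was read at 1.29, 1.95, 0.632 and 0.690 CPM from 68, 161, 58 and 73 UMIs, with ratios of 1.51 (1.13 to 2.03) and 1.09 (0.763 to 1.57). Both receptors were lower at 24 weeks than at 12 in each diet. In MASH the later level was 0.328-fold (0.287 to 0.374) the earlier one for Pdgfra and 0.354-fold (0.265 to 0.469) for Pdgfrb. By the 2-fold rule 3 of the 6 genes were higher at 12 weeks (Pdgfa, Pdgfc and Pdgfra), against 10.3% of the genes compared. At 24 weeks 4 of the 6 were higher (also Pdgfd), against 13.6%. None was lower, against 3.54% and 4.33%. Such sums cannot tell fewer cells of a type from less RNA per cell.

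Doublets and cell weighting bear on several of these ratios. Of the chow library at 24 weeks, the cells called doublets held 66.7% of the Pdgfc UMIs, 70.7% of the Pdgfrb UMIs and all 19 Pdgfra UMIs, the last in 9 cells. Without doublets the 24-week ratio was 26.7 for Pdgfc and 2.60 for Pdgfrb. For Pdgfra it was 63.5, taking 3 UMIs as the floor for a library with 0, and its exact lower limit was 51.3. Averaged over cells rather than over UMIs, the 12-week ratios were 1.45 for Pdgfa, which ends its call, 2.50 for Pdgfc and 2.89 for Pdgfra. In cells with a single hashtag the 12-week Pdgfra ratio was 11.2.

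**Figure D1:**
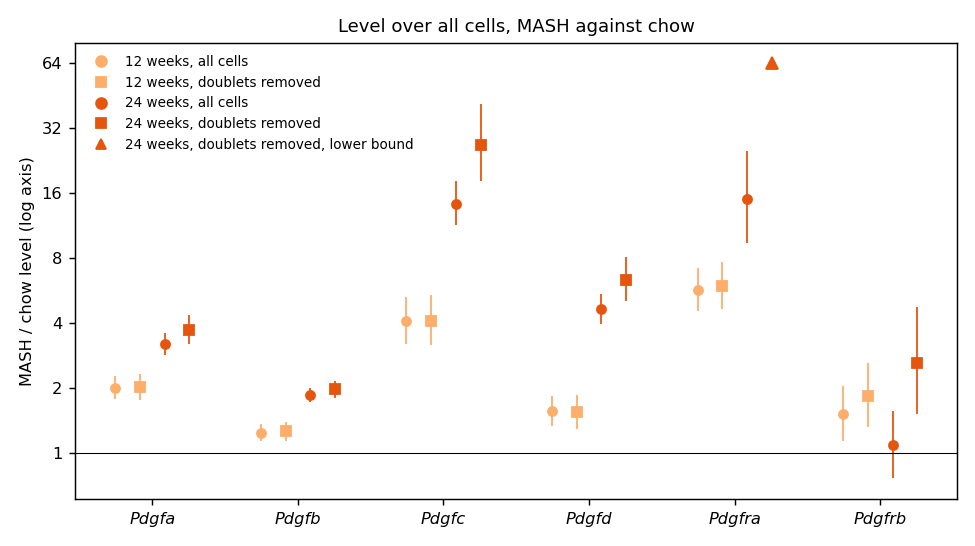
Ratio of the level in MASH to that in chow, summed over all cells, for each gene at 12 and 24 weeks on a log2 axis, with (circles) and without (squares) the cells called doublets. Bars are 95% counting intervals and the triangle is a lower bound. Pdgfc and Pdgfra had the widest gaps at 24 weeks (14.2-fold and 14.9-fold over all cells), and Pdgfrb lay at 1.09 with doublets and 2.60 without.

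The ligands had different sources, while the receptors shared 1 leading source over the 4 libraries together. Of the Pdgfc UMIs in the 4 libraries, 85.9% came from cholangiocyte-like cells, the epithelium of the bile ducts, and of the Pdgfd UMIs 65.4% did. Cholangiocyte-like cells also gave 41.4% of the Pdgfa UMIs. Pdgfb was spread over immune and endothelial classes. Lipid-associated macrophage-like cells gave 19.0% of its UMIs, but led only in MASH at 24 weeks (555 UMIs against 219 from NK and ILC1-like cells). In the other libraries they gave 21, 230 and 7 UMIs against 152, 239 and 196. Mesenchymal-like cells gave 97.9% of the Pdgfra UMIs and 69.0% of the Pdgfrb UMIs. In chow at 24 weeks they gave 1 Pdgfrb UMI, against 16 from all other cells, of which basophil or mast cell-like cells gave 8.

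**Figure D2:**
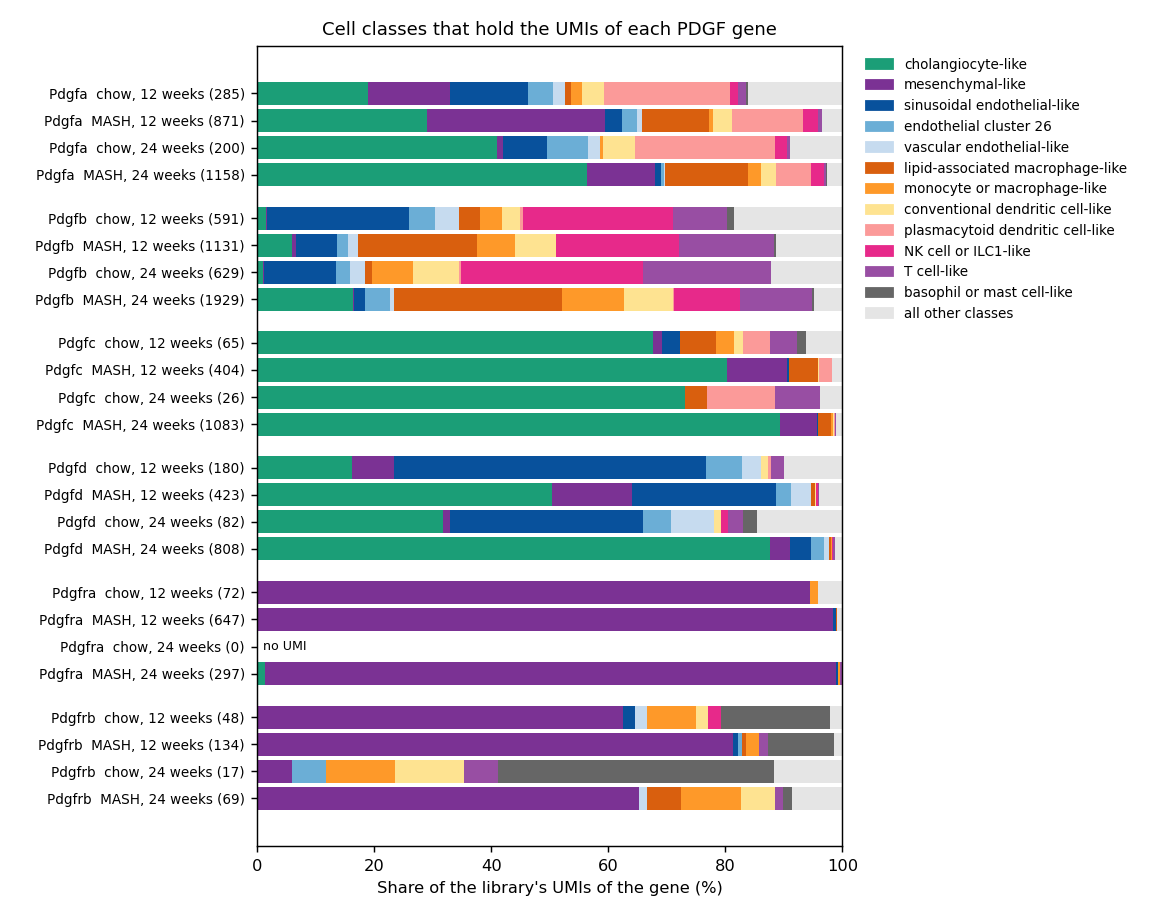
Share of each gene's UMIs that each cell class held, in percent of the gene's UMIs in a library without doublets; the number of UMIs is in brackets. Green bars, the cholangiocyte-like cells, fill most of the Pdgfc rows (67.7% to 89.4%) and 87.6% of the Pdgfd row for MASH at 24 weeks. Purple bars, the mesenchymal-like cells, fill most of each Pdgfra row but that of chow at 24 weeks, which has no UMI.

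Pdgfc, the ligand that needs its CUB domain removed and signals through the alpha receptor, was a gene of cholangiocyte-like cells in every library. They held 67.7%, 80.2%, 73.1% and 89.4% of its UMIs. Cholangiocyte-like cells were 65 of 16244 cells (0.400%) in chow and 183 of 15148 (1.21%) in MASH at 12 weeks. At 24 weeks they were 46 of 20783 (0.221%) and 559 of 17832 (3.13%). Their Pdgfc level was 75.2 (54.6 to 101), 137 (123 to 153), 16.6 (9.99 to 25.9) and 131 (123 to 140) CPM. MASH was thus 1.82-fold (1.33 to 2.56) above chow at 12 weeks and 7.92-fold (5.05 to 13.2) above it at 24 weeks, or 3.93-fold with doublets kept. The share of these cells with at least 1 Pdgfc UMI was 40%, 67.2%, 19.6% and 65.1% (9.23%, 11.6%, 4.44% and 12.8% after thinning each cell to 1000 UMIs), at median depths of 7306, 9410, 21834 and 10049 UMIs. B cell-like cells, taken as a class that should lack the gene, had it in 0.0126% to 0.0771% of cells at median depths of 1676 to 2528 UMIs.

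The class held 2 clusters that the libraries filled unequally. Cluster 20, led by Spp1, Clu and Tm4sf4, had 39, 169, 2 and 559 cells. Cluster 29, led by Dmbt1, Clu and Wfdc2, had 26, 14, 44 and 0 cells, so the 24-week comparison of the class set cluster 29 in chow against cluster 20 in MASH. Within cluster 20 the Pdgfc level was 143 (102 to 195) CPM in chow at 12 weeks, 151 (135 to 168) in MASH at 12 weeks and 131 (123 to 140) in MASH at 24 weeks. At 12 weeks the 2 diets therefore differed by 1.06-fold (0.755 to 1.51) inside this cluster. In cluster 29 the level was 16.0 (5.19 to 37.3), 12.8 (2.64 to 37.4) and 16.7 (10.1 to 26.1) CPM in the first 3 libraries. In the 2 libraries at 12 weeks cluster 20 was thus above cluster 29 by more than the diets differed within either. The median log2 ratio of all genes compared in the class was 0.14 at 12 weeks and 0.40 at 24 weeks. The part of this general difference in the class ratios was not tested.

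Pdgfd, the ligand of the beta receptor, had cholangiocyte-like cells and sinusoidal endothelial-like cells, the fenestrated lining of the liver capillaries, as its 2 main sources. In chow at 12 weeks sinusoidal cells held 53.3% of its UMIs and cholangiocyte-like cells 16.1%. In MASH at 24 weeks the shares were 3.71% and 87.6%. The level in cholangiocyte-like cells was 49.5 (33.2 to 71.1), 90.1 (78.4 to 103), 22.7 (14.8 to 33.3) and 96.2 (89.2 to 104) CPM, or 1.82-fold (1.23 to 2.78) higher in MASH at 12 weeks and 4.24-fold (2.87 to 6.53) at 24 weeks (2.68-fold with doublets kept). Within cluster 20 it was 95.3, 99.6 and 96.2 CPM in the 3 libraries with more than 2 such cells, a 12-week ratio of 1.05 (0.694 to 1.64). As for Pdgfc, cluster 29 was lower, at 9.60, 4.27 and 22.9 CPM. In sinusoidal endothelial-like cells Pdgfd stood at 16.8 (13.6 to 20.5), 17.9 (14.7 to 21.7), 11.0 (7.26 to 16.0) and 14.5 (9.76 to 20.6) CPM, with ratios of 1.07 (0.802 to 1.43) and 1.31 (0.754 to 2.29) that did not leave counting error. There the share of the cells in the library went the other way from the bile duct cells, at 10.5%, 8.36%, 3.26% and 2.24%.

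Pdgfa, the ligand of the alpha receptor, came from cholangiocyte-like, mesenchymal-like and plasmacytoid dendritic cell-like cells. In cholangiocyte-like cells it stood at 92.2 (69.3 to 120), 107 (93.9 to 121), 71.6 (56.9 to 88.9) and 88.7 (82.0 to 95.8) CPM. The ratios of 1.16 (0.859 to 1.58) and 1.24 (0.983 to 1.58) include 1, and the second was 0.956 with median-of-ratios scaling. Unlike Pdgfc and Pdgfd, Pdgfa was also read in cluster 29, at 57.6, 51.2 and 72.1 CPM. In mesenchymal-like cells it was 108 (77.1 to 147) CPM in chow and 72.7 (64.2 to 82.0) in MASH at 12 weeks, a ratio of 0.673 (0.482 to 0.964), and 62.2 (52.2 to 73.6) in MASH at 24 weeks. In plasmacytoid dendritic cell-like cells, the interferon-producing dendritic cells, it stood at 36.8, 35.4, 22.4 and 27.7 CPM, with ratios of 0.962 (0.695 to 1.34) and 1.24 (0.843 to 1.83). The gene thus kept to within 2-fold between diets in each of these main classes, while the summed level differed. Mesenchymal-like cells were compared at 12 weeks only. Lipid-associated macrophage-like cells, marked by Trem2, C1q genes and Apoe, held 11.5% and 14.2% of the Pdgfa UMIs in the 2 MASH libraries at 19.3 (15.7 to 23.5) and 16.5 (14.1 to 19.2) CPM. In NK and ILC1-like cells Pdgfa was called higher in MASH from few UMIs (4, 22, 4 and 27), by 3.17-fold (1.08 to 12.6) where 2.22% of genes were higher and by 4.64-fold (1.62 to 18.3) where 3.14% were. At 24 weeks chow and MASH filled the class differently, with 506 and 900 cells in its cluster 9 and 742 and 245 in its cluster 10. Cluster 9 held 26 of the 27 Pdgfa UMIs of that MASH library, and cluster 10 had 3 UMIs in chow and 1 in MASH. In endothelial cluster 26 it stood at 32.8, 45.7, 82.5 and 17.8 CPM and was lower in MASH at 24 weeks (0.216-fold, 0.068 to 0.598), where 7.55% of genes were. In hepatocyte-like cells at 24 weeks Pdgfa was 1.73 CPM in chow and 10.6 in MASH, from 5 and 17 UMIs (6.12-fold, 2.17 to 21.2). The 12-week ratio there was 0.941 (0.359 to 2.23). In monocyte or macrophage-like cells the 24-week values were 0.574 and 2.37 CPM, from 1 and 24 UMIs (4.12-fold, 0.672 to 170). The share of all genes past 2-fold in these classes is not given.

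Cells of the bile duct class often carried several ligands at once. At least 3 of the 4 ligands were read in 12.3%, 37.7%, 13% and 39.4% of cholangiocyte-like cells in the 4 libraries. Within cluster 20 the 12-week shares were 15.4% and 40.8%, at median depths of 5406 and 9340 UMIs. Over the whole class the deepest cells were those of chow at 24 weeks, with a median of 21834 UMIs, and 44 of those 46 cells were of cluster 29. The part of depth in these shares was not tested. All 4 ligands were read in 1, 16, 1 and 73 cells. By the 2-fold rule none of the 4 members compared in cholangiocyte-like cells was called at 12 weeks, where 10.6% of genes were higher and 5.79% lower. At 24 weeks 3 of 4 were higher (Pdgfb, Pdgfc and Pdgfd), where 24.3% of genes were higher and 7.06% lower.

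**Figure D3:**
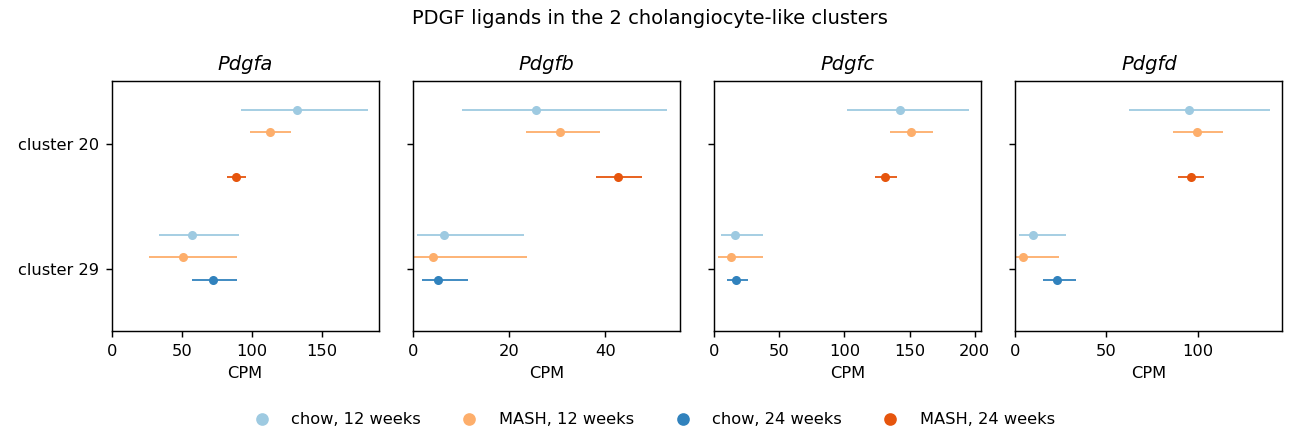
Level (CPM) of the 4 ligands in cholangiocyte-like clusters 20 and 29 by library, with 95% counting intervals; libraries with under 10 cells of a cluster are not drawn. Pdgfc and Pdgfd lie near the same level in each library of cluster 20 (131 to 151 and 95.3 to 99.6 CPM) and far below it in cluster 29, while the Pdgfa intervals of the clusters come closer.

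Pdgfb, the ligand of both receptors and a product of endothelium and platelets in textbook accounts, was read in all 4 libraries in natural killer (NK) and ILC1-like cells, innate lymphocytes of the liver. Their level was 53.6 (45.4 to 62.9), 48.5 (42.6 to 55.1), 59.0 (51.0 to 67.8) and 45.3 (39.5 to 51.7) CPM, with ratios of 0.905 (0.736 to 1.12) and 0.769 (0.631 to 0.937). The class had 2 clusters. Cluster 10, led by Gzma, Klra8 and Prf1 as in cytotoxic NK cells, stood at 70.2, 65.4, 64.3 and 64.8 CPM. Cluster 9, led by Xcl1, Cd7 and Ncr1, stood lower at 34.7, 33.3, 53.5 and 40.7 CPM. Cluster 10 was thus the higher of the 2 in every library, and its diet ratios of 0.933 (0.723 to 1.21) and then 1.01 (0.723 to 1.39) include 1. A Pdgfb UMI was read in 11.9% to 16.2% of NK and ILC1-like cells at median depths of 2136 to 3905 UMIs, against 0.209% to 0.258% of B cell-like cells at 1676 to 2528.

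T cell-like cells had a lower Pdgfb level that was higher in MASH: 5.66 (4.25 to 7.38) and 17.1 (14.7 to 19.8) CPM at 12 weeks, and 9.38 (7.87 to 11.1) and 17.7 (15.6 to 20.1) at 24 weeks. The ratios were 3.03 (2.22 to 4.18) and 1.89 (1.53 to 2.35). The first passed the 2-fold rule, which 3.65% of genes passed upward in T cell-like cells at 12 weeks. Against cells with hashtags 1 to 4 of the 24-week chow library the second ratio was 1.34, and against hashtags 5 to 8 it was 2.91. By hashtag the 3 chow values at 12 weeks spanned 3.60 to 7.19 CPM and the 3 MASH values 15.1 to 19.3, which do not overlap. At 24 weeks the 8 hashtags spanned 5.31 to 14.9 in chow and 11.6 to 21.5 in MASH, which do. Over all cells at 12 weeks the ranges also lay apart for Pdgfa, Pdgfc and Pdgfra. Their highest chow values were 6.77, 2.46 and 1.05 CPM, and their lowest MASH values 10.4, 3.82 and 3.14. Others at 12 weeks overlapped, such as those of Pdgfb over all cells (10.2 to 19.9 in chow and 16.3 to 18.8 in MASH). Those of Pdgfd over all cells (3.43 to 4.16 and 3.59 to 8.60) did too. So did those of Pdgfb in sinusoidal endothelial-like cells (16.3 to 42.8 and 12.1 to 17.9). Over all cells at 24 weeks the ranges of Pdgfra overlapped (0 to 1.07 in chow and 0.472 to 6.25 in MASH). Those of Pdgfrb overlapped as well (0 to 1.05 and 0 to 2.12). The ranges of the ligands lay apart at 24 weeks. For Pdgfa, Pdgfb, Pdgfc and Pdgfd the highest chow values were 5.72, 14.8, 1.35 and 2.68 CPM. Their lowest MASH values were 8.98, 17.6, 7.4 and 5.06 CPM. How often such ranges lie apart over all genes was not tested. The labels do not say what the hashtags mark. In cluster 6, led by Ccl5, Cd8b1, Cd8a and Gzmk as in effector CD8 T cells, the level was 11.4, 27.4, 15 and 26.5 CPM. In cluster 1, the largest, it was 6.00, 14.5, 9.83 and 15.3. Both clusters were higher in MASH, with ratios of 2.40 (1.25 to 5.16) and 1.77 (1.19 to 2.71) in cluster 6 and 2.42 (1.63 to 3.63) and 1.56 (1.16 to 2.08) in cluster 1. Cluster 6 also made up more of the class in MASH, with 257, 886, 652 and 1106 cells.

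Lipid-associated macrophage-like cells held 20.3% and 28.8% of the Pdgfb UMIs in MASH at 12 and 24 weeks. Their level was 72.1 (44.6 to 110) CPM in chow and 44.4 (38.8 to 50.5) in MASH at 12 weeks, 0.616-fold (0.393 to 1.01), and 55.4 (50.9 to 60.2) in MASH at 24 weeks. The 24-week chow library had 15 such cells with 7 Pdgfb UMIs and was not compared. The cells numbered 88, 678, 15 and 997, so MASH had more of these cells and no higher level in them than chow at 12 weeks. No class was named Kupffer cell-like, after the resident macrophages of the liver. Whether the lipid-associated macrophage-like class had the same makeup in both diets was not tested. Monocyte or macrophage-like cells stood at 14.4, 16.9, 25.2 and 20.1 CPM and conventional dendritic cell-like cells at 11.3, 18.4, 17.2 and 20.2. Neither class differed between diets beyond counting error at either week. The 8 megakaryocyte and platelet markers summed to 233, 230, 427 and 136 CPM in lipid-associated macrophage-like cells. The part of platelets in the Pdgfb level was not tested.

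Endothelial classes differed among themselves. In sinusoidal endothelial-like cells Pdgfb was lower in MASH, at 25.0 (21.1 to 29.4) and 13.8 (10.9 to 17.2) CPM at 12 weeks and 31.8 (25.2 to 39.7) and 16.9 (11.8 to 23.5) at 24 weeks. Those ratios of 0.552 (0.415 to 0.731) and 0.530 (0.345 to 0.799) did not reach 2-fold, though the second was 0.338 when cells were averaged. Vascular endothelial-like cells, led by Rspo3, Fabp4 and Vwf, stood at 42.1, 20.1, 38.3 and 24.0 CPM. MASH stood at 0.476-fold (0.248 to 0.901) chow at 12 weeks, when 3.14% of genes were lower. The later ratio of 0.626 (0.283 to 1.37) turned to 1.87 at clustering resolution 2 and to 1.45 against chow hashtags 5 to 8. Cluster 26, an endothelial cluster of 382 cells that carried lymphatic and vascular markers, had the highest Pdgfb level of the classes compared at 24 weeks, but not at 12. It stood at 71.0 (46.4 to 104), 45.7 (28.6 to 69.2), 88.4 (49.5 to 146) and 243 (194 to 302) CPM. MASH was 0.643-fold (0.348 to 1.18) chow at the first time point and 2.75-fold (1.58 to 5.14) at the second, when 10.2% of genes were higher. Of its cells 60, 48, 19 and 1 were named lymphatic endothelial at the finer resolution, and the summed lymphatic markers of cluster 26 were 3862, 4944, 4430 and 398 CPM. Among the cells named vascular endothelial there the 24-week levels were 136 (72.3 to 232) and 248 (197 to 308) CPM, a ratio of 1.82 (1.01 to 3.57).

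Pdgfb was also read in cholangiocyte-like cells, at 15.4 (7.03 to 29.2), 27.9 (21.6 to 35.5), 5.24 (1.92 to 11.4) and 42.6 (38.1 to 47.6) CPM. MASH was 1.82-fold (0.901 to 4.15) chow at the first time point, or 0.884-fold in cells with a single hashtag, and 8.14-fold (3.70 to 22.4) at the second, or 3.21-fold with doublets kept. Again the 24-week chow cells were those of cluster 29. Within cluster 20 the level was 25.6, 30.5 and 42.6 CPM, and MASH at 24 weeks was 1.40-fold (1.07 to 1.85) above MASH at 12 weeks. Mesenchymal-like cells, which carry the receptors, held almost none of this ligand, with 1, 8, 1 and 6 UMIs.

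**Figure D4:**
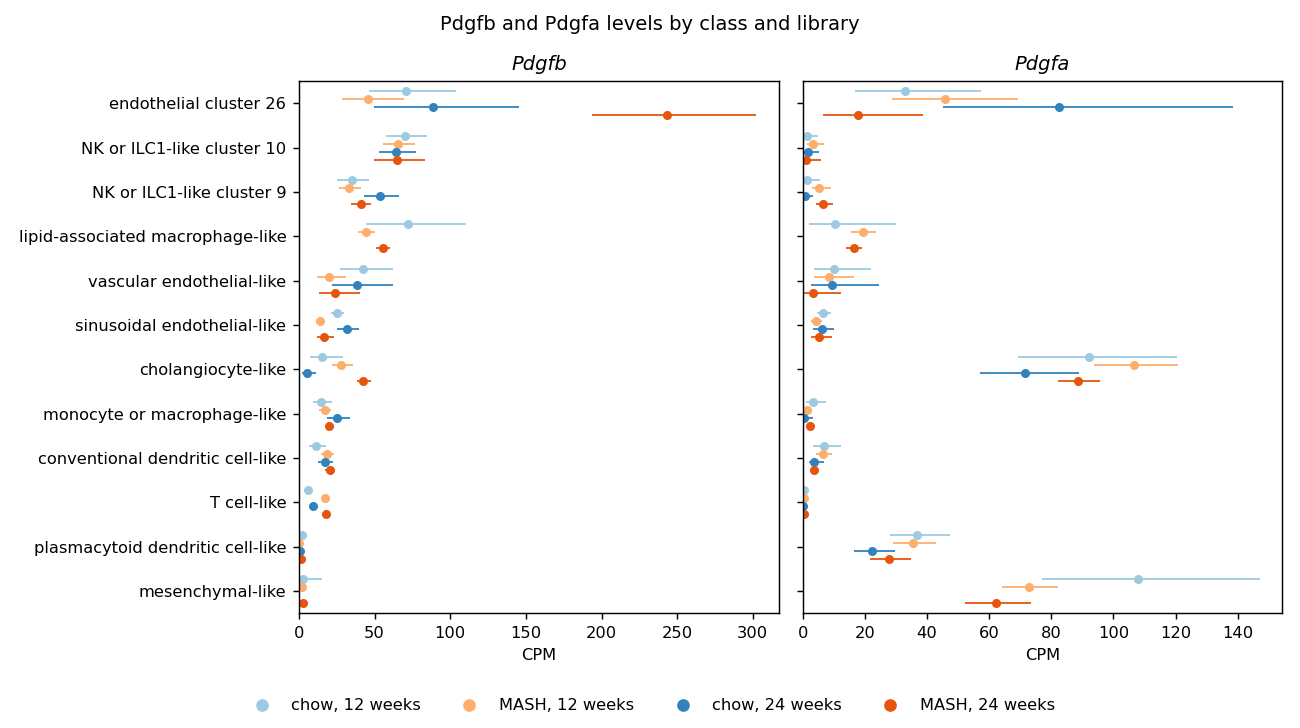
Level (CPM) of Pdgfb and Pdgfa by class and library with 95% counting intervals; libraries with under 20 cells of a class are not drawn. The Pdgfb values of NK or ILC1-like cluster 10 lie together at 64.3 to 70.2, and those of the sinusoidal cells are lower in MASH. Cluster 26 reaches 243 in MASH at 24 weeks. Pdgfa is highest in mesenchymal-like or cholangiocyte-like cells, except in chow at 24 weeks, where cluster 26 stands highest at 82.5.

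The receptors were read in a mesenchymal-like cluster of 516 cells, led by Dcn, C3, Serping1, Igfbp6 and Col3a1, with 85, 294, 7 and 130 cells in the 4 libraries. Its best-scoring marker set was the mesothelial one. Lrat and Reln, the genes of a retinol-esterifying enzyme and of reelin, were rare: 7 of the 516 cells had a UMI of either. Both belong to the stellate marker set, and Reln also served as a lymphatic endothelial marker. Other markers of the stellate set were read, among them Dcn, which led the cluster, and Ecm1. The cluster divided into portal fibroblast-like cells (44, 42, 0 and 5 cells; Gsn, Dpt, Pi16), mesothelial-like cells of the liver capsule (30, 145, 4 and 67; Msln, Upk3b, Wt1), and a subcluster 4 with markers of both kinds (0, 53, 0 and 19; led by Fn1, Gatm and Hp). A further 11, 54, 3 and 39 cells also carried leukocyte genes. With 7 mesenchymal-like cells in chow at 24 weeks, no comparison between diets was made there.

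Pdgfra, the receptor of the A and C chains, was at 184 (143 to 233), 174 (161 to 188) and 134 (119 to 150) CPM in mesenchymal-like cells of the 3 larger libraries. The 12-week ratio was 0.949 (0.738 to 1.24), or 1.61 in cells with a single hashtag, so the direction depends on which cells are kept. Beside the 5.67-fold gap over all cells at 12 weeks, mesenchymal-like cells were 0.523% of cells in chow and 1.94% in MASH, and at 24 weeks 0.0337% and 0.729%. The makeup of the class also differed between diets, and the part of each in the gap was not tested. Outside the mesenchymal-like cluster Pdgfra was near 0, with 4, 10, 0 and 7 UMIs in 16159, 14854, 20776 and 17702 cells. In the MASH library at 12 weeks, cells with hashtag 6 held 225 of the 637 Pdgfra UMIs of the class, cells with hashtags 4 and 5 held 36 and 37, and 339 were in cells with several hashtags or none.

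Among the subgroups portal fibroblast-like cells had the highest Pdgfra level, at 327 (251 to 418) CPM in chow and 480 (402 to 568) in MASH at 12 weeks. That ratio of 1.47 (1.08 to 2.01) lay beyond counting error but under 2-fold. A Pdgfra UMI was read in 31 of 44 cells (70.5%) and 37 of 42 (88.1%), at median depths of 4006 and 5332 UMIs. After each cell was thinned to 1000 UMIs, which left out 3 and 1 shallower cells, the shares were 24.4% and 39.0%. Subcluster 4 stood at 245 (218 to 275) and 221 (181 to 268) CPM in MASH at 12 and 24 weeks and had no chow cells. Mesothelial-like cells showed 0 Pdgfra UMIs in all 30 chow cells at 12 weeks, which allows a share of cells with a detected UMI of up to 10% and sets no limit on cells that express the gene, and none in 4 at 24 weeks. In MASH the same subgroup stood at 67.5 (53.9 to 83.4) and 78.6 (62.4 to 97.9) CPM, with the gene in 27.6% and 47.8% of cells. Against a floor of 3 UMIs in chow (25.9 CPM) the 12-week level was 2.60-fold higher in MASH, with an exact lower limit of 2.07. Of all genes compared there, 12.2% were higher. In the same cells 11 of 14 dissociation stress genes were higher in MASH, and their part in this difference was not tested. The median depth of these cells was 3471, 6562 and 10951 UMIs in chow at 12 weeks and MASH at 12 and 24 weeks, and thinned shares were 0%, 5.0% and 6.25%.

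The mesothelial-like cells came from 3 subclusters, and chow cells fell almost wholly in 1 of them, subcluster 3, led by Slpi, Msln and Muc16. Within it Pdgfra had 0 UMIs in 28 chow cells, 15 UMIs in 35 MASH cells at 12 weeks and 28 UMIs in 10 MASH cells at 24 weeks. The last 2 correspond to 32.3 (18.1 to 53.3) and 101 (67.1 to 146) CPM. With chow set to the floor of 3 UMIs (26.4 CPM), the 12-week ratio inside subcluster 3 was 1.22. Its exact lower limit was 0.878, so the difference was not beyond counting error. A 2-fold difference could not be told at this depth.

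Pdgfrb, the receptor of the B and D chains and the classical receptor of stellate cells and pericytes, was at 81.0 (54.6 to 116), 29.8 (24.5 to 35.9) and 20.7 (15.1 to 27.7) CPM in mesenchymal-like cells of chow at 12 weeks and MASH at 12 and 24 weeks. The 12-week ratio was 0.368 (0.244 to 0.571), called lower where 8.08% of genes were. Within the portal fibroblast-like cells the level was 140 (92.3 to 204) and 169 (125 to 225) CPM, a ratio of 1.21 (0.738 to 2.02). These cells were 44 of 85 mesenchymal-like cells in chow and 42 of 294 in MASH, and the summed portal fibroblast markers of the mesenchymal class were 28097 and 5734 CPM. The makeup of the class thus differed between diets, and its part in the lower class level was not tested. No lower level was read within the main Pdgfrb subgroup, from 27 UMIs in chow and 47 in MASH. Mesothelial-like cells held 0, 9, 0 and 3 Pdgfrb UMIs. Subcluster 4 stood at 29.2 (20.3 to 40.6) and 31.9 (17.9 to 52.6) CPM in MASH.

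The few cells with the sparse stellate markers Lrat or Reln stood out for the beta receptor. The 7 mesenchymal-like cells with a Lrat or Reln UMI, 3 in MASH at 12 weeks and 4 in MASH at 24 weeks, held 40 of the 185 Pdgfrb UMIs of the class and 32 of the 995 Pdgfra UMIs. Their Pdgfrb level was 420 CPM, against 23.6 CPM in the other 509 cells, and their Pdgfra level was 336 against 157. In MASH at 24 weeks 4 such cells held 22 of the 45 Pdgfrb UMIs of the class. These cells were picked out after their values had been seen, and chow had none.

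Both receptors were read together in 37 of the 91 portal fibroblast-like cells, Pdgfra alone in 36, Pdgfrb alone in 4 and neither in 14. In the 246 mesothelial-like cells the counts were 6, 66, 6 and 168, so there Pdgfra was mostly read without Pdgfrb. In the 72 cells of subcluster 4 they were 19, 39, 2 and 12. The co-detection of 2 genes depends on the depth of the cell, which was a median of 4590, 7003 and 18369 UMIs in these subgroups.

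Outside the mesenchymal-like cells, Pdgfrb was read in the basophil or mast cell-like class, with 9, 15, 8 and 1 UMIs in 172, 184, 115 and 100 cells. That is 11.8 (5.41 to 22.5), 16.3 (9.11 to 26.8), 18.1 (7.80 to 35.6) and 1.95 (0.0493 to 10.8) CPM, with no more than 2 UMIs in a cell. Pdgfra had 0 UMIs in these cells in all 4 libraries, which allows up to 1.63% to 3.0% of cells with a detected UMI. In B cell-like cells Pdgfrb had 0, 0, 0 and 1 UMIs in 4303, 3482, 7946 and 5191 cells, at median depths of 1676 to 2528 UMIs.

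**Figure D5:**
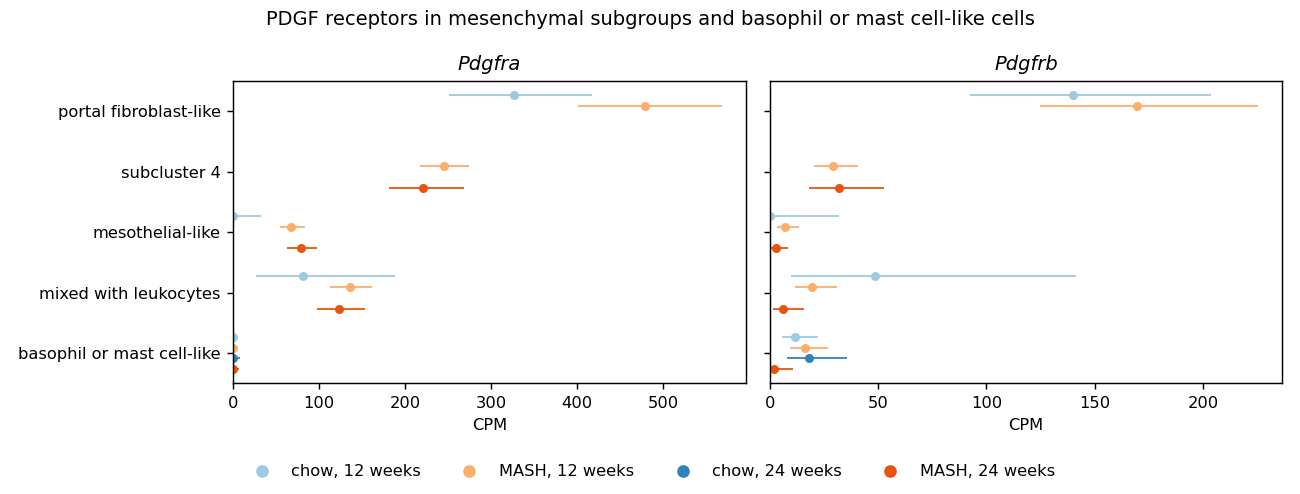
Level (CPM) of Pdgfra and Pdgfrb in the mesenchymal subgroups and in basophil or mast cell-like cells by library, with 95% counting intervals; libraries with under 10 cells of a group are not drawn. Portal fibroblast-like cells are highest for both receptors, mesothelial-like cells carry Pdgfra in MASH (67.5 and 78.6) with little Pdgfrb, and their chow value is 0 with an upper limit of 31.9.

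Mesenchymal-like cells also made ligands. Besides Pdgfa, they read Pdgfc at 2.70, 11.5 and 31.3 CPM in chow at 12 weeks and MASH at 12 and 24 weeks, from 1, 42 and 68 UMIs. The level in MASH was 2.73-fold (1.83 to 4.11) higher at 24 weeks than at 12. Mesothelial-like cells held 14 of the 42 UMIs and then 47 of the 68, at 11.1 (6.07 to 18.6) and 46.2 (33.9 to 61.4) CPM. There subcluster 2, led by Saa3, Slpi and Alcam, stood at 31.3 (15 to 57.6) and 53.9 (38.2 to 74.1) CPM, a ratio of 1.72 (0.842 to 3.87), and it had 27 and then 53 cells. Pdgfd was lower in MASH in the class as a whole, at 35.1 (18.7 to 60.0) against 15.9 (12.0 to 20.5) CPM at 12 weeks, a ratio of 0.452 (0.245 to 0.899). Within mesothelial-like cells that ratio was 0.771 (0.306 to 2.50) and within portal fibroblast-like cells 1.22 (0.309 to 5.67). Of the 5 members compared in mesenchymal-like cells at 12 weeks 1 was higher (Pdgfc, 4.25-fold, 0.723 to 172, against 1 chow UMI) and 2 were lower (Pdgfd and Pdgfrb), where 10.8% and 8.08% of genes were.

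The genes around the receptors were read in mesenchymal-like cells at 12 weeks. Of 15 genes that process the ligands or serve as co-receptors, 13 were compared: none was higher in MASH and 3 were lower, with a median log2 ratio of -0.40 against 0 over all genes. Lrp1, an endocytic partner of the beta receptor, stood at 769, 415 and 339 CPM in chow at 12 weeks and MASH at 12 and 24 weeks, the order kept for the genes below. The 3 were the proprotein convertases Pcsk5 (0.203-fold, 0.131 to 0.318) and Pcsk6 (0.304-fold, 0.219 to 0.427) and Plau, the urokinase that can activate the D chain (0.392-fold, 0.224 to 0.729). Of 23 receptor signalling genes 2 were higher (Stat3 and Abl2) and 1 lower (the kinase Fyn), with a median of 0.11. The transcription factor Stat3 was at 78.3, 171 and 231 CPM, a 12-week ratio of 2.19 (1.51 to 3.29), and Jak1, the other gene chosen for its UMIs, was 138, 167 and 118. None of 14 receptor shut-off genes was called, with a median of 0.20. Among them the feedback inhibitor Socs3 stood at 108, 156 and 159 CPM and the adaptor Grb10 at 86.4, 99.8 and 62.7. The signalling and shut-off genes were thus mostly within 2-fold between the diets.

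Of 14 related ligands and receptors compared, Vegfa was higher (2.82-fold, 1.41 to 6.62) and Vegfd, Pgf and Kdr, all of the related VEGF family, were lower, with a median log2 ratio of -0.34. The receptor Kdr stood at 130, 62.1 and 44.2 CPM and the macrophage growth factor Csf1 at 159, 119 and 124. Of 24 stellate activation and matrix genes 5 were higher, namely Acta2, Tagln (0 UMIs in chow), Fn1, Timp1 and Thbs1, and 3 lower, namely Mmp2, Postn and Ccn2, with a median of -0.04. Timp1, an inhibitor of matrix metalloproteinases, was 11.7-fold (8.47 to 16.8) higher and the collagenase Mmp2 0.412-fold (0.342 to 0.50). The collagen gene Col3a1 was 4060, 4183 and 1167 CPM and the matrix protein Sparc 4921, 4782 and 2456. Of the 14 quiescent stellate genes, 6 were compared and 1 was higher (Colec11, against 1 chow UMI), with Ecm1 at 715, 476 and 335 CPM. Of 14 dissociation stress genes 3 were higher (Ier3, Hspa1a and Zfp36) and none lower, with a median of 0.75, and the immediate-early genes Fos and Jund stood at 1487, 1651 and 1115 and at 1547, 1218 and 815 CPM. In mesothelial-like cells 11 of the 14 were higher, where 12.2% of all genes were, with a median of 1.82 against 0. In mesothelial-like cells that stress list was thus mostly higher in MASH, and its part in the other lists was not tested. The genes named here beyond the 2 with most UMIs in each list were named after their values had been seen.

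Within portal fibroblast-like cells, the subgroup with the highest level of both receptors and with 44 and 42 cells at 12 weeks, fewer list genes were called. Of 9 processing genes compared 1 was higher (the co-receptor Nrp1, 2.86-fold, 1.35 to 6.73). Of 12 signalling genes 1 was higher (Rasa1, the GTPase activator that binds the active receptor) and 2 were lower (the adaptor Grb2 and the kinase Akt1). Of 20 matrix genes 1 was higher (Col6a3, 2.14-fold, 1.55 to 3.01), and none of 13 stress genes was called. Over all genes 4.46% were higher and 4.19% lower there, and none of the 3 members compared was called.

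The genes whose levels were most like each member's were found over 70 points, each a class in a library with at least 20 cells, by Pearson's r of log2(CPM + 10) among 14473 genes. These correlations describe 18 classes that recur across the libraries, and points of a library share its depth. For Pdgfa they were Ptprf (0.862) and Gdpd1 (0.851), and for Pdgfb Slc12a7 (0.769), Pald1 (0.745) and Gm28731 (0.740). For Pdgfc they were Dsg2 (0.951), Cftr (0.945) and Fgfr2 (0.942), and for Pdgfd Ankrd29 (0.938), Agrn (0.930) and Map4k3 (0.929). For Pdgfra they were Sfrp2 (0.999), Cpz (0.999) and Muc16 (0.998), and for Pdgfrb Mmp2 (0.901), Col5a1 (0.854) and Medag (0.854). Because Pdgfra was near 0 outside mesenchymal-like cells, its r rests on the few points of that class. Its value mainly sets that class apart from the others. Among the members the most alike were the 2 receptors (0.819) and then Pdgfa and Pdgfd (0.737). Pdgfb was unlike the others, at 0.391 with Pdgfd, 0.153 with Pdgfa and -0.219 with Pdgfra.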

How the data were processed

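The authors deposited UMI counts per gene and barcode for each library, made with Cell Ranger 5.0.1 (version 4 for MASH at 12 weeks), per the file headers. Builds mm10 and GRCh38 are listed, with no role, in the submitters' processing notes. No source used here describes the cell calling. The 12-week MASH matrix holds 737280 barcodes, so its cells rest on the filter alone, and its barcode list was not used. Members and gene lists were chosen with earlier results of these data known.

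Cells were filtered as stated, doublets marked with Scrublet (scanpy 1.11.5), and the remaining cells clustered on 2000 variable genes without members or list genes (30 components, 15 neighbours, Leiden resolution 1). Clusters were named from 22 marker sets; rules for ties, mixed and unnamed clusters were set after the clusters were seen. Coordinates are GENCODE M21's. Counts were summed per class and library and divided by the total UMIs. Poisson, binomial and conditional binomial intervals cover counting error only. A class needed 20 cells in each library and a gene 20 UMIs to be compared. The ratio and its calls were tested on simulated data. Named genes were the members, list genes called at both weeks in mesenchymal-like cells or else the 2 with most UMIs per list, and the 3 genes most like each member; 2 genes that this rule names are not reported here. Alternatives were other doublet, cell, hashtag, scaling, resolution and UMI settings.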

Additional observations from a re-analysis of the deposited data

How the results depend on the processing

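No member's called difference between diets changed direction under any alternative run, and the stricter cell filter, median-of-ratios scaling and resolution 2 left every member's ratio over all cells, source and receptor share that they could give within its spread. With doublets removed, an alternative chosen after seeing the data, the 24-week ratios over all cells were 3.71 for Pdgfa, 26.7 for Pdgfc, 6.32 for Pdgfd and 2.60 for Pdgfrb. Averaged over cells they were 1.45 for Pdgfa, 2.50 for Pdgfc, 1.25 for Pdgfd and 2.89 for Pdgfra at 12 weeks, and 3.66 for Pdgfa, 1.70 for Pdgfb and 3.42 for Pdgfd at 24 weeks. In cells with a single hashtag they were 2.47 for Pdgfa and 11.2 for Pdgfra at 12 weeks, and 21.7 for Pdgfc, 5.48 for Pdgfd and 1.69 for Pdgfrb at 24 weeks. Against 24-week chow cells with hashtags 1 to 4 they were 1.61 for Pdgfb and 6.02 for Pdgfd, and with hashtags 5 to 8 they were 2.46 for Pdgfb, 27.9 for Pdgfc, 5.93 for Pdgfra and 3.19 for Pdgfrb. With doublets kept, lipid-associated macrophage-like cells gave 16.3% of Pdgfb UMIs and mesenchymal-like cells 62.8% of Pdgfrb UMIs. In mesenchymal-like cells at 12 weeks, 1 receptor shut-off and 1 quiescent stellate gene were lower with a minimum of 1 UMI in each library, and 0 quiescent stellate genes were higher with a minimum of 50 UMIs. The cause of these changes was not tested. No paired analysis was possible because each group has 1 library, and for the same reason no library could be left out of a group. Depth limits the receptors most: 516 mesenchymal-like cells, 7 of them in chow at 24 weeks, carry 97.9% of the Pdgfra UMIs and 69.0% of the Pdgfrb UMIs.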
